A study of Saccharomyces cerevisiae with 14 samples.

Results

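The steady-state transcriptome described here is that of the Saccharomyces cerevisiae wild-type strain YSBN6 growing on glucose and glutamine, before any drug was added. Its members are the 3 arrays labelled as taken at -10 min, 1 from each of the fermentations BY005, BY006 and BY007, out of 14 arrays in the whole series. They gave a level for 5449 genes. The cultures were grown in batch fermentors in a minimal medium with 20 g/L glucose as carbon source and 1 g/L glutamine as nitrogen source, at 30 °C, pH 5 and 1000 rpm, to an optical density near 1. In the study, rapamycin, an inhibitor of the TOR complex 1 kinase, was then added to 400 µg/L, and the same 3 cultures were sampled again at 7 and 24 min, and BY005 alone also at 3, 10, 14, 56 and 120 min. Biotin-labelled total RNA was measured on the Affymetrix Yeast Genome 2.0 array, on which probe sets of budding yeast stand beside those of fission yeast, Schizosaccharomyces pombe. No array came from a culture left without rapamycin beyond the steady-state sample, so time and drug cannot be told apart in the comparison with 24 min.

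Budding yeast ferments glucose to ethanol even in air, and while glucose is plentiful it represses the genes for respiration, gluconeogenesis, the glyoxylate cycle and the use of other sugars and fatty acids. In minimal medium the cells make their own amino acids and nucleotides. Glutamine is a preferred nitrogen source, and under it the GATA activators Gln3 and Gat1 are held back, which lowers the genes for uptake and breakdown of poorer nitrogen sources, a state called nitrogen catabolite repression. Many metabolic and ribosomal genes exist as a pair of paralogs left by an ancient genome duplication, of which one copy is often kept for stress, starvation or low oxygen.

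In what follows, a level is the log2 of the deposited RMA intensity, as the mean ± SD of the 3 steady-state arrays unless single arrays are given. RMA is a procedure that corrects the background, makes the arrays' distributions alike and joins the probes of a probe set into 1 value. Probe sets bind with different strength, so levels of different genes are set side by side as signals, not as transcript numbers, and no test was made between genes. In bulk RNA, fewer cells that carry a transcript and less of it per cell cannot be told apart.

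As background served 1746 probe sets, annotated with a gene absent from the budding yeast gene table and so taken as fission yeast. Any fission yeast probe sets without an annotated gene are not among them. Their median level was 4.42, and their 95th percentile, 5.74, was taken as the background threshold; 8 of them lay above 7 and 1 above 8. The median gene of budding yeast lay at 10.71, with quartiles of 9.71 and 11.73, the lowest at 3.45 and the highest at 14.84. Of the 5449 genes, 5283 (97.0%) lay above the threshold and 166 (3.05%) below it. Of the 166, 140 were below it on every one of the 3 arrays. Gene medians were 10.71, 10.69 and 10.73 on the arrays of BY005, BY006 and BY007, as the normalization makes them.

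**Figure D1:**
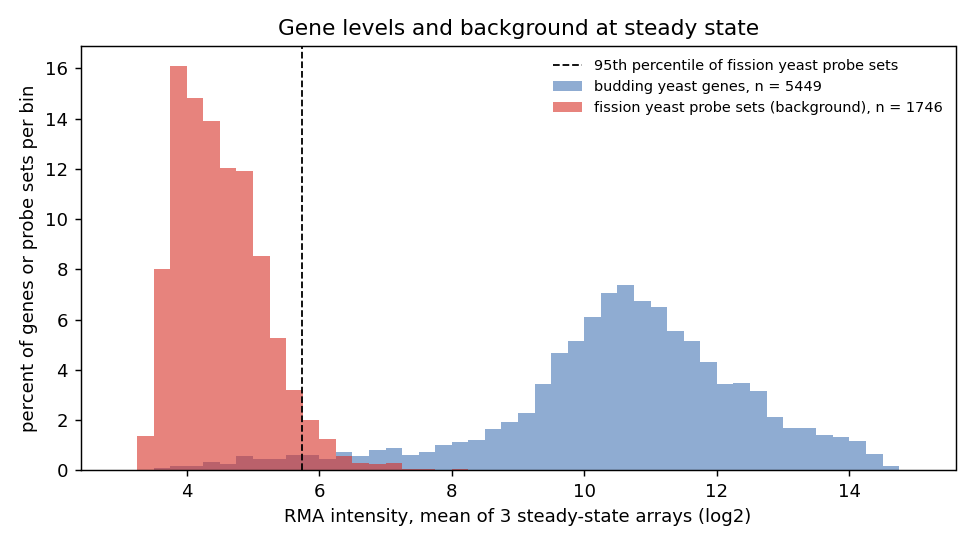
Share of genes (blue) and of fission yeast probe sets (red) per bin of 0.25 log2 units of RMA intensity, as the mean of the 3 steady-state arrays. The dashed line is the 95th percentile of the fission yeast probe sets, 5.74; the median gene lies at 10.71.

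The mating type was read from its marker genes as a check of the strain. The 7 a-specific genes had a median level of 12.88, between 9.70 (ASG7, under the median gene) and 13.73 (MFA1). STE2, the receptor for alpha factor, read 13.65, 13.68 and 13.66 in BY005, BY006 and BY007, and MFA1, a gene for a-factor, read 13.69, 13.77 and 13.74. The 4 alpha-specific genes had a median of 7.56 and no member below the background threshold: SAG1, the alpha agglutinin, was the brightest at 9.69, and MF(ALPHA)1, which encodes alpha factor, the dimmest at 6.23 ± 0.62. SAG1 thus read like ASG7, the dimmest a-specific gene. The silent alpha locus gene HMLALPHA1 read 3.85 ± 0.09 and lay below the threshold, while the signal annotated to HMRA1 read 11.47 ± 0.12. HMRA1 is named for the silent a locus, but the signal need not come from that copy. It is therefore not read here as transcription of a silent locus. The 8 haploid-specific genes had a median of 11.19, between 5.70 (HO) and 11.82 (STE4). The 7 measured genes of amino acid, uracil and adenine synthesis that often serve as auxotrophic markers lay between 12.38 (URA3) and 14.06 (MET17).

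The brightest genes belonged to glycolysis, ethanol formation, protein synthesis and the cell wall. TDH3, a glyceraldehyde-3-phosphate dehydrogenase, was the brightest gene of all and read 14.83, 14.84 and 14.86 in BY005, BY006 and BY007. CCW12, a mannoprotein of the cell wall, followed with 14.62, 14.67 and 14.71, and TEF2, translation elongation factor 1 alpha, with 14.62, 14.65 and 14.69. The probe set of TEF2 carries a suffix for probes that also match another gene, and TEF1, its near-identical copy, had no probe set of its own. Of the 20 brightest genes, 7 were further steps between glucose and ethanol: the mutase GPM1 (14.61), pyruvate kinase CDC19 (14.58), the kinase PGK1 (14.54), pyruvate decarboxylase PDC1 (14.54), triosephosphate isomerase TPI1 (14.53), alcohol dehydrogenase ADH1 (14.52) and enolase ENO2 (14.48). An eighth was the aldolase FBA1, at 14.46. The remaining ones were the peroxiredoxin AHP1 (14.52), the cell wall protein CWP2 (14.47), the membrane protein gene ZEO1 (14.44) and the ribosomal protein genes RPS4B, RPL10, RPS31, RPS21B, RPL7A and RPL30, between 14.44 and 14.48. The spread among the 3 cultures was small here, with an SD between 0.005 (ENO2) and 0.085 (RPS31).

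Within 1 log2 unit of the top there were 156 genes. Of these, 102 (65.4%) encoded cytosolic ribosomal proteins, of which 127 were measured in all; 10 belonged to glycolysis or ethanol formation, 6 were translation factors and 3 were cell wall proteins. The lists left 19 of the 156 unaccounted for. They included, as named after their values were seen, the ribosome-associated chaperones SSB1 and SSB2, the ribosomal scaffold protein gene ASC1, the peroxiredoxin TSA1, the superoxide dismutase SOD1 and acetyl-CoA carboxylase ACC1. The median length of the 156 genes was 812.5 bases, against 1236 bases for all genes.

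Transcripts of the protein synthesis machinery were high as a group, each part at its own height. The 127 cytosolic ribosomal protein genes had a median level of 14.08 and ranged between 12.09 (RPL15B) and 14.48 (RPS4B). The 20 cytosolic aminoacyl-tRNA synthetases, which charge tRNAs with amino acids, had a median of 13.26 and a narrow range between 12.66 (WRS1, for tryptophan) and 13.69 (GUS1, for glutamate). The 29 measured translation factors had a median of 12.95, with the elongation factor paralog HEF3 as the dimmest at 7.77. The 46 ribosome biogenesis genes, which build rather than form the ribosome, had a median of 11.83, and the 20 subunits of RNA polymerases I and III one of 11.68. The 71 mitochondrial ribosomal proteins lay near the middle of all genes, with a median of 10.97.

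Amino acid and nucleotide synthesis was on throughout, since every one of these lists had a median at least 1.5 log2 units above the median gene. Lysine synthesis stood highest, with a median of 13.30 over 9 genes, between 10.59 (LYS5) and 13.95 (LYS9, saccharopine dehydrogenase). Sulfur assimilation and methionine synthesis had a median of 13.26 over 21 genes; MET6, methionine synthase, read 14.21, 14.22 and 14.21 in BY005, BY006 and BY007, and MET8, of siroheme synthesis, was the dimmest at 10.70. Branched-chain amino acid synthesis had a median of 13.11 over 11 genes, led by ILV5 (13.93), with the cytosolic aminotransferase BAT2 lowest at 10.72. Medians were 13.07 for serine, threonine and homoserine, 12.58 for aromatic amino acids, 12.54 for histidine and 12.46 for arginine synthesis. No member of these lists came near the background. Purine synthesis had a median of 13.15 over 15 genes, led by ADE17 (13.93), and pyrimidine synthesis one of 12.38 over 9 genes, led by URA2 (13.55). The thiamine synthesis list stood apart from these pathways with a median of 9.80 over 13 genes, none above the median gene. Its brightest entry was THI6 at 10.61 and its dimmest SNO1, a gene of vitamin B6 synthesis, at 7.14.

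Of the 52 gene lists, 35 had a median above that of all genes and 17 at or below it. Ergosterol synthesis had a median of 12.46 over 25 genes, the proteasome 12.63 over 32, cell wall genes 13.04 over 24 and histones 13.60 over 10. In the histone list the centromeric variant CSE4 was the dimmest at 9.70. Proteases of the vacuole, the yeast lysosome, had a median of 12.34 over 8 genes, led by APE3 (13.39), whereas the 21 autophagy genes had one of 9.15, led by the lipid kinase gene VPS34 (10.74). ATG16, which joins the conjugation complex of autophagy, read 6.12, 5.37 and 5.55 in BY005, BY006 and BY007 and had a mean below the background threshold.

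**Figure D2:**
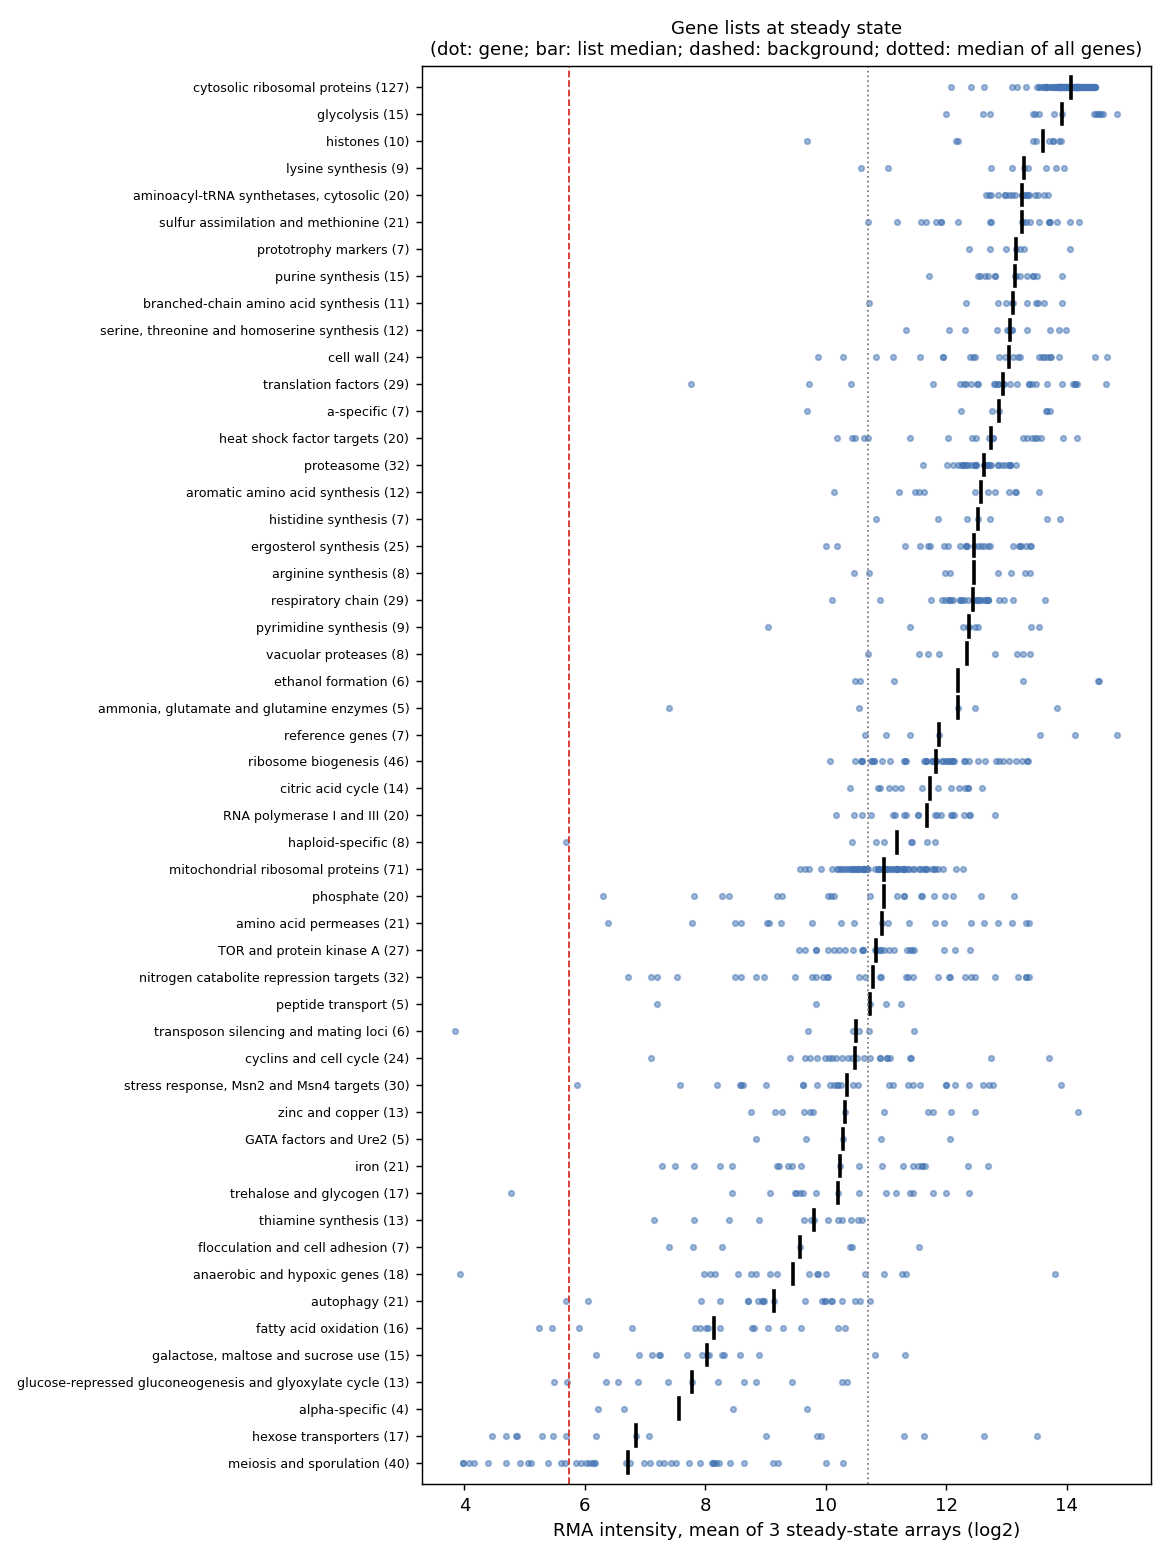
Levels at steady state of the measured members of 52 gene lists (number in brackets), as the mean log2 RMA intensity of 3 arrays; each dot is a gene and each bar the list median. The dashed line is the background, 5.74, and the dotted line the median of all genes, 10.71; 35 lists have their median to the right of it.

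Within glucose metabolism, glycolytic genes read high as a list and the lists for other carbon sources low. The 6 genes of ethanol formation had a median of 12.20, with 4 of them above the median gene and PDC5 the dimmest. All 15 measured glycolytic genes lay above the median gene, with a median of 13.93 and HXK1, a hexokinase under glucose repression, as the dimmest at 11.95, 12.07 and 11.99 in BY005, BY006 and BY007. Glucose enters through hexose transporters, of which 17 genes of the family list were measured, sensors and the galactose permease included. HXT3, a low-affinity transporter, read 13.54, 13.49 and 13.52 in BY005, BY006 and BY007, and HXT1, also of low affinity, read 12.70, 12.53 and 12.64. HXT2 followed at 11.64 ± 0.18 and HXT7, a high-affinity transporter, at 11.31 ± 0.11. In 5 of the 17 genes a probe set carried the suffix for shared probes. HXT6, HXT12 and HXT16 had no probe set of their own, so a signal of this family need not come from the named gene alone. RGT2, the sensor of high glucose, read 9.93 ± 0.08 and SNF3, the sensor of low glucose, 8.99, 8.99 and 9.03. HXT8, HXT10, HXT11, HXT13, HXT14, HXT15 and HXT17 had a mean below the background threshold, 7 of 17. HXT5, which is known from slow growth, read 6.84 ± 0.31.

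The list of glucose-repressed gluconeogenesis and glyoxylate cycle genes had a median of 7.77 over 13 genes, none of them above the median gene. ACS1, an acetyl-CoA synthetase, was the brightest at 10.36 ± 0.04. PCK1, the phosphoenolpyruvate carboxykinase of gluconeogenesis, read 7.69, 7.88 and 7.75 in BY005, BY006 and BY007, and FBP1, fructose-1,6-bisphosphatase, read 6.30, 6.22 and 6.52. Both were above the background threshold on every array. MLS1, malate synthase of the glyoxylate cycle, read 5.93, 5.44 and 5.77, so that its arrays lay on both sides of the threshold and its mean, 5.71, just below it; SFC1, a succinate and fumarate carrier, had the lowest mean at 5.49. ICL1, the other enzyme of the glyoxylate cycle, read 8.85 ± 0.01.

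Genes for galactose, maltose and sucrose had a median of 8.03 over 15 genes, with none below the threshold. GAL80, the repressor of the galactose genes, and SUC2, invertase, were the brightest at 11.32 and 10.82, while the galactokinase gene GAL1 read 8.58 and the permease gene GAL2 6.19. Fatty acid oxidation had a median of 8.15 over 16 genes, led by its regulator OAF1 (10.32). POT1, the peroxisomal thiolase, and POX1, the acyl-CoA oxidase, lay below the threshold at 5.25 and 5.46. The citric acid cycle and the respiratory chain were far from the background despite the glucose. Their medians were 11.74 over 14 genes, between 10.41 (IDH1) and 12.60 (LSC1), and 12.45 over 29 genes, between 10.11 (NDI1, the internal NADH dehydrogenase) and 13.64 (ATP1, of the ATP synthase).

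The genes under nitrogen catabolite repression were split. The list of 32 had a median of 10.78, close to that of all genes, and 16 lay above the median gene. At the top were permeases: AGP1, for many amino acids, read 13.43, 13.34 and 13.34 in BY005, BY006 and BY007, GAP1, the general amino acid permease, read 13.46, 13.29 and 13.21, and MEP2, an ammonium permease, read 13.30, 13.25 and 13.01. These 3 genes lay in the upper part of all genes, above 13. ASP3-1, a secreted asparaginase, stood among them at 13.33, and GLN1, glutamine synthetase, read 12.48. The dimmest 5 members were DAL4, GUD1, OPT2, DAL1 and UGA4. DAL4, the allantoin permease, read 7.12, 6.73 and 6.32, DAL1, allantoinase, read 7.75, 7.56 and 7.27, and UGA4, the GABA permease, 8.57, 8.51 and 8.39. GUD1, guanine deaminase, averaged 7.09 and OPT2, an oligopeptide transporter, 7.20. No member was below the background threshold, and in 1 of the 32 a probe set carried the suffix for shared probes. Of the regulators, GAT1 read 12.07 ± 0.22, URE2, the inhibitor of the activators, 10.91 ± 0.09, GLN3 9.68 ± 0.03 and the repressor DAL80 8.84 ± 0.48. Among the enzymes that join ammonia to carbon, GDH1, the NADP-dependent glutamate dehydrogenase of biosynthesis, read 13.84 ± 0.06 and GDH2, which runs towards breakdown, 10.56 ± 0.05.

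Of the stress and nutrient lists, the 30 targets of Msn2 and Msn4, the general stress activators, had a median of 10.35, slightly under the median gene. HSP12, a small membrane-binding stress protein gene, read 13.95, 13.89 and 13.89 in BY005, BY006 and BY007, while MOH1, the dimmest, read 6.16, 5.59 and 5.87. The list thus spanned most of the range of the array. Trehalose and glycogen genes had a median of 10.21 over 17 genes, led by TPS1 (12.38); GAC1, a targeting subunit of the phosphatase for glycogen synthase, lay below the threshold on each array at 4.80, 4.80 and 4.73. Phosphate genes had a median of 10.96 over 20 genes: PHO84, the high-affinity transporter induced by phosphate hunger, read 8.28 ± 0.05, and PHO90, a low-affinity one, 11.98 ± 0.08. Of 21 iron genes, with a median of 10.23, FET3 and FTR1, the high-affinity uptake pair, were the brightest at 12.70 and 12.36. The 18 measured genes of the anaerobic and hypoxic list had a median of 9.46, with 4 of them above the median gene. DAN1, a cell wall mannoprotein of anaerobic cells, read 3.93 ± 0.10. NCE103, carbonic anhydrase, was the brightest entry at 13.81, which is not read here as a sign of low oxygen.

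The meiosis and sporulation list was the lowest of all lists, with a median of 6.72 over 40 genes and 12 below the threshold. MEI5, of meiotic recombination, was the dimmest at 3.98 ± 0.19, followed by DIT2, of the spore wall, at 3.99 ± 0.27. GSC2, a glucan synthase that also serves outside meiosis, was the brightest at 10.29. The regulators IME1 and IME2 read 9.13 ± 0.09 and 8.65 ± 0.12 and so lay well above the background in these vegetative cultures.

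Among the 166 genes below the threshold, 28 were in one of the lists and 138 in none; 75 had only a systematic name, 45.2% of them, against 9.16% of all genes. Their median length was 682.5 bases, against 1236 bases over all genes. Just inside the threshold were YCR108C and RAD34, both at 5.73, and just outside it FRE7 and YLR157W-E, at 5.77 and 5.78; HO, the mating type switching endonuclease, read 5.99, 5.77 and 5.32. A low signal did not mark a dispensable gene: SPC24 of the kinetochore, GPI19 of glycolipid anchor synthesis and the SUMO ligase gene MMS21, which are known as essential for growth and were picked after their values were seen, read 5.59, 5.68 and 5.21. A level below the threshold is therefore not read here as absence of the transcript.

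Use of paralogs was read from 78 listed pairs with a known shared function, of which 75 had both members measured. The members differed by a median of 1.41 log2 units of signal, between 0.11 (the thioredoxins TRX2 and TRX1) and 7.17; 27 pairs differed by less than 1 unit and 18 by more than 4. In no pair was a member below the background threshold. The difference within a pair varied little over the cultures, with a median SD of 0.081. In 2 pairs a probe set carried the suffix for shared probes.

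The pairs furthest apart were enzymes of central metabolism with a dim second copy. Transketolase 1, TKL1, read 13.66, 13.63 and 13.69 in BY005, BY006 and BY007, and TKL2 read 6.95, 6.29 and 6.22. Pyruvate decarboxylase PDC1 read 14.50, 14.54 and 14.58, and PDC6 8.01, 7.78 and 7.61, with PDC5 between them at 10.48. NADP-dependent glutamate dehydrogenase GDH1 read 13.92, 13.81 and 13.81, and GDH3 7.58, 7.28 and 7.32. In these pairs no array of the dim member came within 3 log2 units of the bright one. The same held for the aromatic aminotransferases ARO8 and ARO9 (13.15 and 6.72), elongation factors YEF3 and HEF3 (14.15 and 7.77), plasma membrane proton pumps PMA1 and PMA2 (13.79 and 7.78), dehydrogenases of the pentose phosphate pathway GND1 and GND2 (13.57 and 7.58), peroxiredoxins TSA1 and TSA2 (14.19 and 8.21), alcohol dehydrogenases ADH1 and ADH2 (14.52 and 8.64), and the pyruvate carrier subunits MPC2 and MPC3 (13.28 and 8.11). The copies known from low oxygen also read low: ANB1 9.73 beside HYP2 14.11 (translation factor 5A), AAC3 8.76 beside PET9 13.33 (ADP/ATP carriers) and CYC7 9.85 beside CYC1 12.09 (cytochromes c). COX5B, the hypoxic subunit of cytochrome oxidase, stood closer to its partner, with 11.34 beside 12.22 for COX5A.

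Other pairs stood closer together, though not all of them near equal. The S-adenosylmethionine synthetases SAM1 and SAM2 read 13.85 and 13.71, the HMG-CoA reductases HMG1 and HMG2 of sterol synthesis 11.69 and 11.57, and the first enzymes of aromatic synthesis, ARO3 and ARO4, 12.82 and 13.05. The TOR kinase genes TOR1 and TOR2 read 10.83 and 11.35. The hexokinases were further apart, by 1.54, with HXK2 at 13.60, 13.50 and 13.53 and HXK1 at 11.95, 12.07 and 11.99. The Ras genes RAS2 and RAS1 read 12.40 and 11.40. The cytosolic serine hydroxymethyltransferase SHM2 read higher (13.99) than the mitochondrial SHM1 (12.84), and SER33 (13.09) higher than SER3 (12.31), both phosphoglycerate dehydrogenases.

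Paralogous ribosomal protein genes lay closer together than the listed pairs: 50 of 59 pairs were measured, with a median difference of 0.22, 46 under 1 unit and none over 4. In 18 of the 50 a probe set carried the suffix for shared probes, and 102 of the 127 ribosomal protein genes lay within 1 unit of the top of the scale; the part of either in this nearness was not tested. The 4 pairs over 1 unit had no such suffix. RPL15A read 13.92, 13.98 and 13.99 and RPL15B 12.05, 12.08 and 12.13. RPS9B read 14.12 and RPS9A 12.41, RPL22A 14.13 and RPL22B 12.63, and RPS14A 14.22 and RPS14B 13.09.

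**Figure D3:**
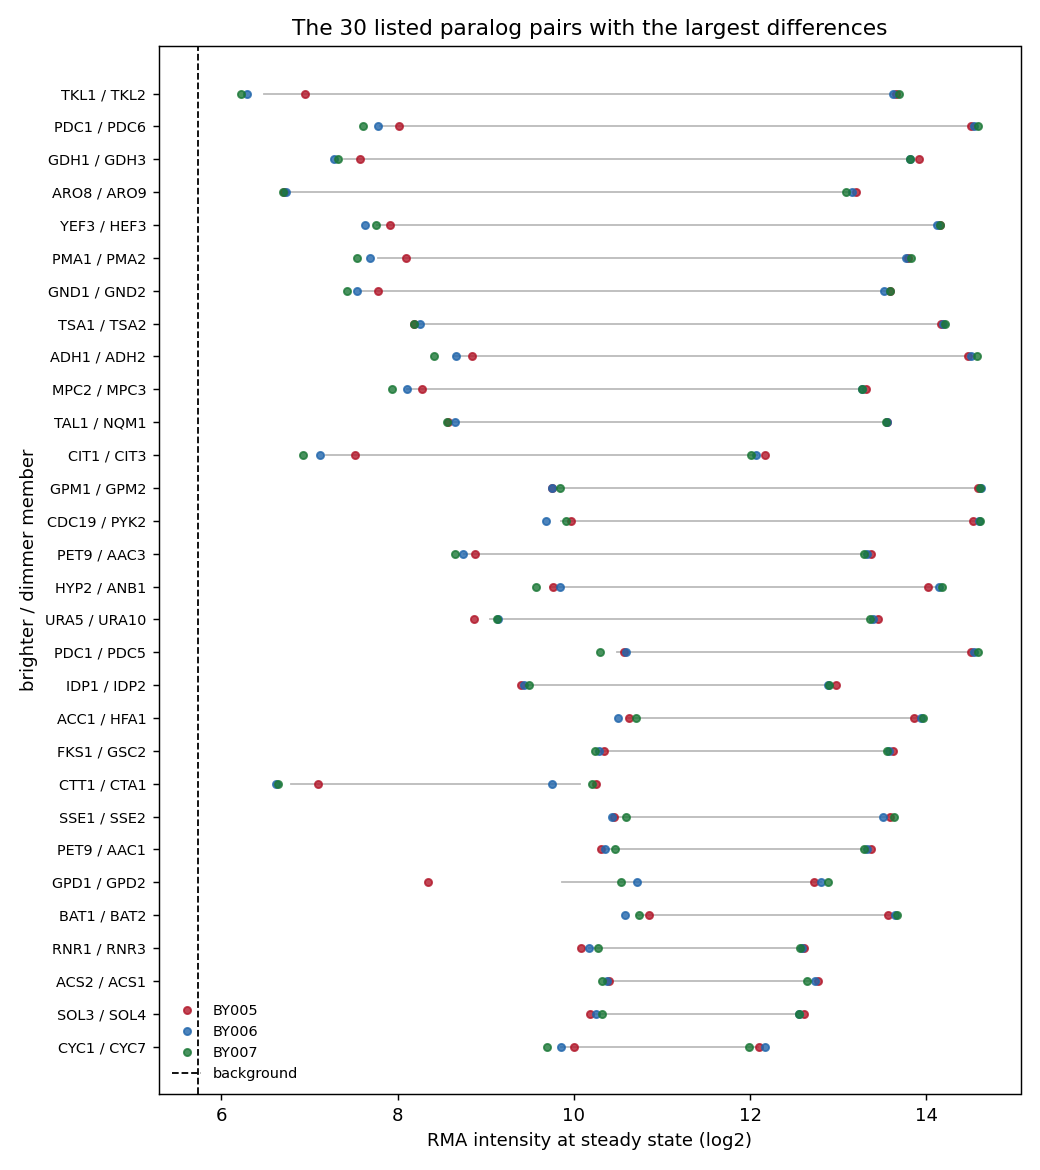
Listed paralog pairs with the largest differences, 1 row a pair with the brighter member named first; points are the log2 RMA intensities of the 3 steady-state arrays, coloured by fermentation. The dashed line is the background, 5.74; in the pair GPD1 and GPD2 the array of BY005 stands apart from the other 2.

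The 3 cultures were close to each other. The median gene above background had an SD of 0.066 log2 units and 73.0% of them had one under 0.1, while 26 exceeded 0.5. The spread fell as the level rose, with a median SD of 0.217 below the background threshold, 0.172 between it and 8, 0.065 between 10 and 12, and 0.025 above 14. Without the array of BY005 the median SD was 0.042, without that of BY006 0.062 and without that of BY007 0.058. Each of these rests on fewer arrays than the 0.066. The array of BY005 was the farthest from the median of the 3 for 46.5% of the genes, against 24.5% for BY006 and 29.0% for BY007. The arrays also differed in their controls: rRNA probe sets read 12.92, 11.34 and 12.09, the spiked polyA controls 8.66, 7.28 and 7.40 and the hybridisation controls 11.81, 11.23 and 9.61 in BY005, BY006 and BY007. Their part in the differences was not tested. The 3' probe set of ACT1, beside the 5' one a measure of RNA integrity, was higher by 0.63, 0.63 and 0.77.

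A range over 1 log2 unit, or 2-fold, was seen for 24 genes above background (0.454%), and BY005 stood apart in 18 of them and BY007 in 6. Between BY006 and BY007 only 2 genes differed by more than 2-fold. Of the 24, 13 (54.2%) were at most 300 bases long, against 3.82% of the genes above background. YDR524W-C, an open reading frame of 90 bases, read 9.77, 11.89 and 12.32 in BY005, BY006 and BY007, the largest SD of all (1.37). YBR221W-A (105 bases) read 4.32, 6.68 and 6.35, so that its mean, 5.78, was just above the threshold of 5.74 and its BY005 array below it. YAR035C-A (81 bases) read 6.22, 8.25 and 8.46, and YDR034C-A (177 bases) 7.86, 9.26 and 9.66. YOR032W-A, YMR272W-B and YOR293C-A, all at most 201 bases long, were likewise lowest in BY005, while YPL152W-A and SLO1 were lowest in BY007. Of longer genes among the 15 with the largest SD, ECM8, YJR079W and VAM7 were lowest in BY005, and SPG4, known from stationary phase, was highest there with 7.09, 6.27 and 5.91. MF(ALPHA)1 was lowest in BY007, at 6.70, 6.46 and 5.52 in BY005, BY006 and BY007.

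GPD2 was the gene of known metabolic role with the largest spread. It encodes a glycerol-3-phosphate dehydrogenase, which makes the precursor of glycerol and reoxidises NADH. It read 8.35, 10.71 and 10.53 in BY005, BY006 and BY007, so that BY005 lay apart from the others by over 2 units, while its paralog GPD1 read 12.72, 12.80 and 12.88. After rapamycin BY005 remained the lowest, with a smaller gap, while the order of BY006 and BY007 changed at 7 min: GPD2 read 8.37 at 7 min and 8.13 at 24 min in BY005, against 9.64 and 9.89 in BY006 and 9.82 and 9.88 in BY007. At the later times of BY005 it read 9.30 at 56 min and 9.66 at 120 min.

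Whether genes differed between the fermentations was tested with a moderated F test in limma over the 9 arrays at steady state, 7 and 24 min, with time as a term. No gene passed at an adjusted p under 0.05 (0.0% of 5449), and 871 (16%) had an unadjusted p under 0.05. That count was 518 without the steady-state array of BY005, with a smallest adjusted p of 0.25, and 448 without all 3 steady-state arrays, with a smallest adjusted p of 0.55. Leaving out any other single array gave between 604 and 1067. All these fits rest on fewer arrays than the 9, which by itself changes such a count. Over the 9 arrays the smallest adjusted p was 0.057, shared by YPR027C, ORC6, YDR524W-C, SIZ1, AZR1, GPD2 and IRC25. With the genes alone quantile-normalized 9 genes passed, and with 16 added to each intensity 7 passed. ORC6, a subunit of the origin recognition complex, read 9.74 in BY005, 10.35 in BY006 and 10.41 in BY007, and SIZ1, a SUMO ligase, 8.65, 9.12 and 9.27. Both were lowest in BY005. AZR1, a plasma membrane transporter, was lowest in BY006 with 9.68, 8.96 and 9.64, and so was YRO2, with 9.62, 9.08 and 9.55 (adjusted p = 0.066, limma). IRC25, a proteasome assembly chaperone, was highest in BY005 with 11.28, 10.88 and 10.81. EST2, the telomerase catalytic subunit, and PEX34, of peroxisomes, were lowest in BY005 at 8.93 and 11.57, against 9.85 and 12.12 in BY006 and 9.62 and 12.12 in BY007 (adjusted p = 0.064 each, limma).

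Each culture has 1 steady-state array, so the counts over lists given next describe these 3 arrays, with no test of a culture. The lists were chosen after their values were seen. Of the 32 nitrogen catabolite repression targets, 22 were highest in BY005 and 22 were lowest in BY007, against 43.5% of all genes above background highest in BY005 and 27.6% lowest in BY007. Their median deviation from the gene mean was 0.09 in BY005, 0.01 in BY006 and -0.08 in BY007. DAL80 had the widest range, with 9.28, 8.91 and 8.32. GAT1, for a GATA activator, ran the other way with 11.82, 12.17 and 12.22. Over the 9 arrays, 4 of the 32 (12.5%) had an unadjusted p under 0.05 for the fermentation, against the 16% of all genes. Of 15 glycolytic genes 11 were lowest in BY005, and of 71 mitochondrial ribosomal proteins 43 were, against 33.8% of all genes. Over the 9 arrays, 0 of the 15 and 10 of the 71 (14.1%) had an unadjusted p under 0.05 for the fermentation. Among the respiratory chain genes 19 of 29 were lowest in BY007, and over the 9 arrays 9 of the 29 (31.0%) had an unadjusted p under 0.05. The median SD of the 7 a-specific genes was 0.121, against 0.046 for genes of like level, and 6 of the 7 were lowest in BY005; 2 of the 7 had such a p over the 9 arrays.

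**Figure D4:**
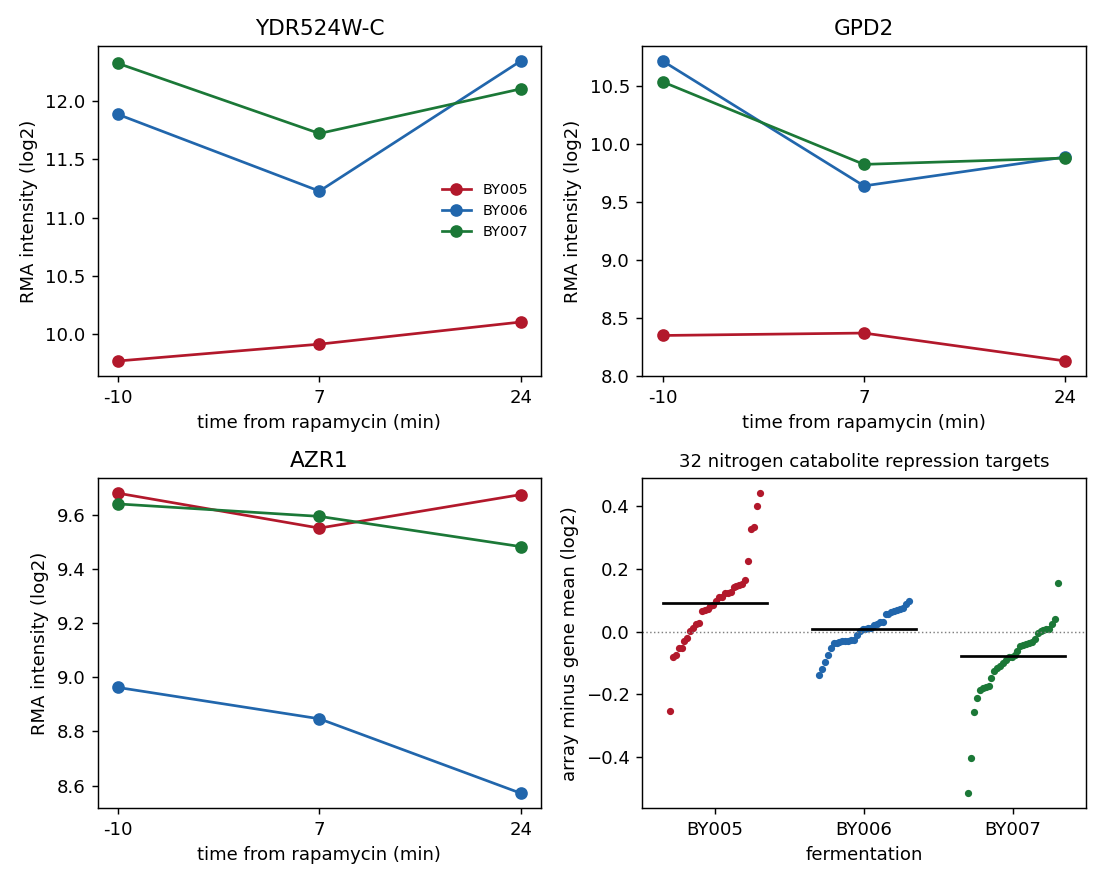
YDR524W-C, GPD2 and AZR1 in the 3 fermentations at -10, 7 and 24 min (log2 RMA intensity, 1 array per point, times drawn evenly spaced), and, at lower right, the deviation of each steady-state array from the gene's mean for the 32 nitrogen catabolite repression targets, sorted within each fermentation, with the median as a bar. BY005 is lowest for YDR524W-C and GPD2 at all 3 times and BY006 for AZR1; the medians of the targets are 0.09, 0.01 and -0.08.

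The comparison with 24 min shows which of the dim genes and second copies could give signal on these arrays. In limma on all 14 arrays, 4085 of 5449 genes (75.0%) differed between 24 min and steady state at an adjusted p under 0.05, 2427 higher (44.5%) and 1658 lower (30.4%). The counts below are to be read against those shares. Scaling to the hybridisation controls, which differed by about 2 units among arrays of 1 time, left 418 genes and moved the median of all genes from 0.11 to 1.08, so a fall smaller than about 1 unit turns into a rise under it. Of the 34 genes shown from this comparison, 24 still passed under that scaling and 10 did not, with their direction kept: HXT1, HXT2, HXT7, HXT8, SPS1, MUP1, HEF3, MPC3, FTR1 and PHO90.

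MLS1 showed that its probe set can reach a high level: it read 11.07, 10.75 and 10.82 at 24 min in BY005, BY006 and BY007, against 5.93, 5.44 and 5.77 at steady state, at least 35.3-fold higher with the background threshold as its floor (adjusted p = 2.0e-07, limma). Of the 13 gluconeogenesis and glyoxylate genes, 11 were higher at 24 min and 2 lower. PCK1 averaged 9.47 at 24 min and 7.77 at steady state, and SIP4, a regulator of that group, 8.56 at 24 min and 6.55 at steady state. Of the 16 fatty acid oxidation genes 13 were higher and none lower. POX1 and POT1 were at least 4.31-fold and 4.25-fold higher at 24 min, reading 7.68 to 8.12 and 7.53 to 8.05 there, and CRC1, the carnitine carrier, averaged 8.29 at 24 min and 5.91 at steady state. All 14 citric acid cycle genes were higher, with ACO1, aconitase, at 12.75 at 24 min and 10.87 at steady state. Of the 32 nitrogen catabolite repression targets, 30 were higher and 2 lower. Their median level was 13.29 at 24 min and 10.78 at steady state. The median change of 2.18 was 3.15 under the scaling to controls. All 30 targets of Msn2 and Msn4 and all 17 trehalose and glycogen genes were higher too.

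Of the 17 hexose transporter genes, 9 were higher at 24 min and 4 lower. HXT5 averaged 9.79 at 24 min and 6.84 at steady state (2.95 ± 0.20 SE, adjusted p = 2.2e-06, limma). HXT11 and HXT8, below the threshold at steady state, were at least 2.79-fold and 1.79-fold higher. The bright HXT1 fell by 1.75 to 10.87 at 24 min and HXT2 fell by 1.70 to 9.94, while HXT7, of high affinity, averaged 12.16 at 24 min and 11.31 at steady state. Of 15 galactose, maltose and sucrose genes 9 were higher and 2 lower, among them GAL7 (8.70 at 24 min and 7.12 at steady state) and MAL32 (8.86 at 24 min and 7.24 at steady state). Of the 40 meiosis genes 26 were higher and 1 lower: HOP1, of the chromosome axis, was at least 4.05-fold higher, DMC1, the meiotic recombinase, averaged 9.03 at 24 min and 7.23 at steady state, and SPS1 was the 1 that fell, reading 5.99, 5.32 and 5.46 at 24 min, against 6.82, 6.60 and 6.66 at steady state.

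Of the dimmer members of the 18 listed pairs over 4 units apart, 13 were higher at 24 min and 5 lower. These copies were picked for their low steady-state level, which enters the comparison too. GDH3 read 12.40, 12.18 and 12.32 at 24 min in BY005, BY006 and BY007, against 7.58, 7.28 and 7.32 at steady state (30.0-fold, adjusted p = 3.5e-07, limma). TSA2 averaged 10.89 at 24 min and 8.21 at steady state, TKL2 8.30 at 24 min and 6.48 at steady state, ARO9 8.67 at 24 min and 6.72 at steady state, GND2 9.47 at 24 min and 7.58 at steady state, and HEF3 9.15 at 24 min and 7.77 at steady state. In each of these 6 genes the 3 arrays at 24 min lay above the 3 at steady state. URA10, the second copy beside URA5, averaged 10.78 at 24 min and 9.04 at steady state, and MPC3 9.41 at 24 min and 8.11 at steady state. The 5 that were lower were ANB1 (8.86 at 24 min and 9.73 at steady state), PMA2 (7.19 at 24 min and 7.78 at steady state), ADH2 (8.11 at 24 min and 8.64 at steady state), PDC5 (10.10 at 24 min and 10.48 at steady state) and AAC3 (8.42 at 24 min and 8.76 at steady state), with adjusted p between 6.9e-04 and 0.023 in limma. Under the scaling to controls the changes of these 5 turned positive, between 0.11 and 0.64.

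Among the lists bright at steady state, those that build ribosomes fell furthest. All 46 ribosome biogenesis genes were lower at 24 min, with a median level of 7.28 at 24 min and 11.83 at steady state and a median change of -4.21, which was -3.24 under the scaling to controls. GAR1, of the small nucleolar particles that modify ribosomal RNA and the brightest of them, averaged 10.37 at 24 min and 13.36 at steady state. All 20 subunits of RNA polymerases I and III were lower too, with a median change of -2.61 (-1.63 under that scaling).

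Single genes of permeases and nucleotide synthesis also fell. URA7, a CTP synthase, read 7.23, 7.11 and 6.30 at 24 min in BY005, BY006 and BY007, against 12.47, 12.33 and 12.28 at steady state (44.6-fold lower, adjusted p = 1.4e-07, limma). GNP1, a glutamine permease, fell by 3.55 ± 0.06 SE to 9.31 at 24 min, and MUP1, a methionine permease, fell by 3.37 to 9.73. Of the 21 amino acid permeases 8 were higher and 12 lower; DIP5, for glutamate and aspartate, averaged 13.29 at 24 min and 9.77 at steady state. FTR1 fell by 1.91 to 10.45 at 24 min and PHO90 by 2.32 to 9.66. Of the 15 purine synthesis genes 0 were higher and 13 lower, with a median change of -1.01 that was -0.03 under the scaling to controls, and of the 20 tRNA synthetases 1 was higher and 17 lower, with a median of -0.53 that turned to 0.44 under it.

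**Figure D5:**
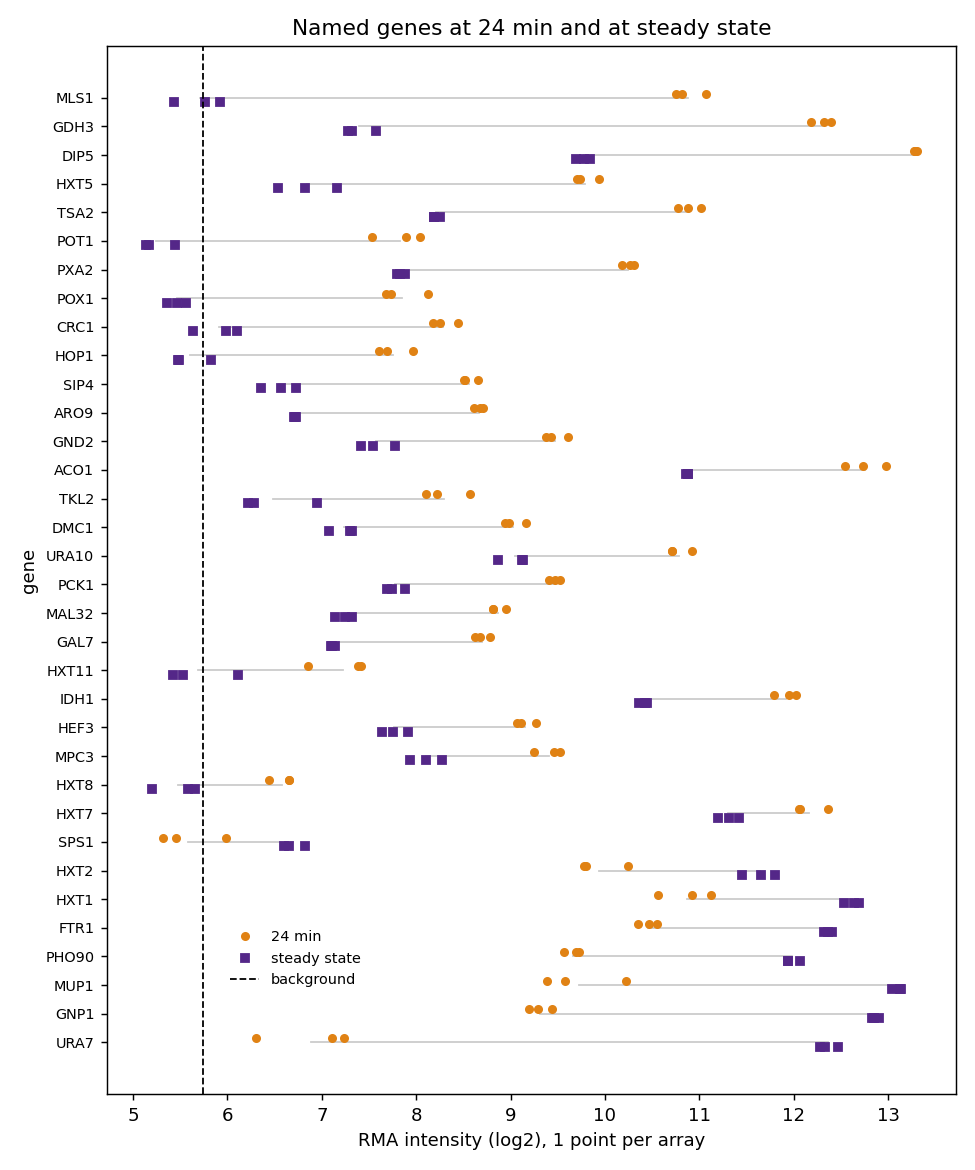
The 34 genes shown from the comparison, sorted by change, with the 3 arrays at 24 min (circles, upper in each row) and the 3 at steady state (squares, lower in each row), as log2 RMA intensity. GAR1, ANB1, PMA2, ADH2, PDC5 and AAC3 are not drawn. The dashed line is the background, 5.74; MLS1 has the largest rise and URA7 the largest fall among the genes shown.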

How the data were processed

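The authors labelled total RNA, hybridised it to 1-colour arrays and made RMA intensities (R 2.10.0, affy package), per the submitters' processing notes; the deposited intensities are on a linear scale, so log2 was taken first. No scanner files or detection calls were used, and the number of arrays limits the precision. Of 10928 probe sets, 5498 that the platform annotation ties to a single budding yeast gene gave 5449 genes (47 as a mean of several probe sets). Levels, SDs and counts were computed with python 3.11.15 and pandas 2.3.3. Of the protein-coding genes in the gene table of assembly R64, which gave the lengths, 9.55% had no gene-specific probe set.

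Tests ran in limma 3.58.1 under R 4.3.3, with Benjamini-Hochberg adjustment over the 5449 genes: 24 min minus steady state on 14 arrays in 8 time groups without a block, and a fermentation term on 9 arrays with time. Both were run on simulated data with few changed genes and noise drawn independently for each array. That run does not measure their error in the present data, where 75.0% of genes were called at 24 min. The labels make each fermentation a separate culture sampled repeatedly, so its number pairs arrays across times. Deviations of arrays from the same fermentation correlated between -0.16 and 0.53, those of other pairs between -0.52 and 0.40.

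Named were the 20 brightest genes, the 15 above background with the largest SD and the 10 with the smallest adjusted p for the fermentation. Members of the lists and pairs were named too, among them the brightest or dimmest of many, but not all, of the lists. The members and lists were chosen with earlier results of these data known. Sequences are not shown here.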

Additional observations from a re-analysis of the deposited data

Results flagged for a closer look

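The 3470 probe sets without a gene in the annotation used here enter no comparison. Of these, 382 (11.0%) had a mean level above the background threshold at steady state, and the brightest read 14.31. The 3470 were not assigned to a species here, so unannotated probe sets of fission yeast and of budding yeast may be mixed among them. Their share is therefore not compared with that of the annotated fission yeast probe sets, which is 5% by construction. Of the 382, 71 lay above the median gene, and 5 carried the suffix for shared probes. They are given as values.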

How the results depend on the processing

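The number of genes that differed at 24 min stayed within 1.5 times of 4085 with the genes alone quantile-normalized, dim genes left out, the highest probe set, 16 added to each intensity, the fermentation as a replicate block (4214) and 1 array left out (3827 to 4077); with scaling to the hybridisation controls it was 418. Of the 34 genes shown from it, 24 passed and 10 did not under that scaling, and the replicate block and each left-out array ended none of these calls. The lower copies ANB1, PMA2, ADH2, PDC5 and AAC3, and GAR1, are named in the text but are not among the 34. The changes of those 5 copies turned positive under the scaling to controls. The fermentation test called 0 genes, and 9 with the genes alone quantile-normalized and 7 with 16 added; it called 0 in every fit that left out 1 array. The count of genes below background, 166, was 256 with the 99th percentile, 122 with the 90th, and 150 with the percentile over all 14 arrays, an alternative chosen after seeing the data; leaving out 1 array gave 163 to 171. The median SD, 0.066, was 1.14 with scaling to the controls and 0.042 to 0.062 with 1 array left out, 0.042 being without BY005. Of the 52 lists, 33 to 35 had their median above that of all genes under every alternative that kept the median. With means in place of medians, 33 lists had a mean above the mean of all genes. No listed pair had a member below background under any alternative run. The cause of these shifts was not tested. The lowest signals, under 8, have the largest spread and limit what can be said of dim genes; the brightest are near the top of the scale.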
